A study of Sus scrofa with 8 samples.

Results

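The genes that replicate DNA and drive the cell cycle were followed by name at their promoters in pig embryonic fibroblasts (PEFs). Members were the RefSeq Sscrofa11.1 protein-coding genes whose symbol is MCM, CDC, CDK, E2F, RFC or ORC followed by a number and, in some, a final letter. This rule, which uses no measured value, gave 66 of the 19487 protein-coding genes on chromosomes 1 to 18 and X. MCM5 and CDC25A were not members, and CDK6 was left out because its record is typed as a long non-coding RNA. Some members carry these names for historical reasons and act in transcription, splicing or signalling, so they were sorted into 12 roles.

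PEFs are primary connective tissue cells, taken here from Large White fetuses aged 35 days and cultured for 24 h. All samples were untreated, and they were profiled by ChIP-seq, in which an antibody pulls down DNA fragments bound to a modified histone or to a protein. H3K4me3, H3K27ac and CTCF had 2 replicates each, making 6 libraries, and the labels do not say whether replicates came from separate cultures or animals. The inputs were not analysed here.

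Before a cell divides, the origin recognition complex (ORC) marks origins, CDC6 helps to load the MCM helicase there, and the kinases CDC7 and CDK2 start replication with CDC45. The clamp loader RFC places the sliding clamp PCNA on DNA, and E2F proteins control the transcription of many of these genes. H3K4me3 marks gene starts, H3K27ac marks active promoters and enhancers, and CTCF is a DNA-binding protein that helps to fold chromosomes.

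A peak was counted at a gene when any of its bases lay within 1 kb of the gene start, which is the start of the RefSeq gene record. Where several peaks qualified, the one of highest fold enrichment over the background of the peak caller is called the lead peak. Pairs of values below are for replicates 1 and 2 in that order. The lists held 37932 and 43516 H3K4me3 peaks, 74983 and 81164 H3K27ac peaks, and 40289 and 44682 CTCF peaks. The median fold of all H3K4me3 peaks was 9.19 and 6.15, so folds of that mark are on different scales in its replicates, whereas those of H3K27ac (4.84 and 4.75) and CTCF (19.7 and 19.2) were closer. The peak lists hold no read counts, and the depth behind a peak is unknown. Both histone marks were present at 11 of 11 fibroblast markers in both replicates, and neither was present at the 3 endothelial markers. Of the 5 epithelial markers, all had H3K4me3 and 1 had H3K27ac. Of the 4 blood markers, 1 had H3K27ac and none had H3K4me3.

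Nearly every member carried both promoter marks. H3K4me3 was present at 62 of 66 members in both replicates, compared with 68.9% of all protein-coding genes. H3K27ac was present at 64 members in both replicates, compared with 60.7% of all genes. The same 62 members had both marks in both replicates, a share of 93.9% against 58.9% of all genes. Gene families that every cell uses gave similar shares, with 36 of 39 proteasome subunit genes and 75 of 79 cytosolic ribosomal protein genes holding both marks. CTCF was less common, with 15 members in both replicates and 17.9% of all genes. The complete groups, with both marks at every gene in both replicates, were the 6 ORC genes, the 5 MCM helicase subunits, the 3 other MCM genes, the 5 RFC genes, the 8 E2F genes, the 7 kinases of transcription, the 8 other CDK genes, the 4 CDC phosphatases and the 6 CDC genes of other roles.

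**Figure D1:**
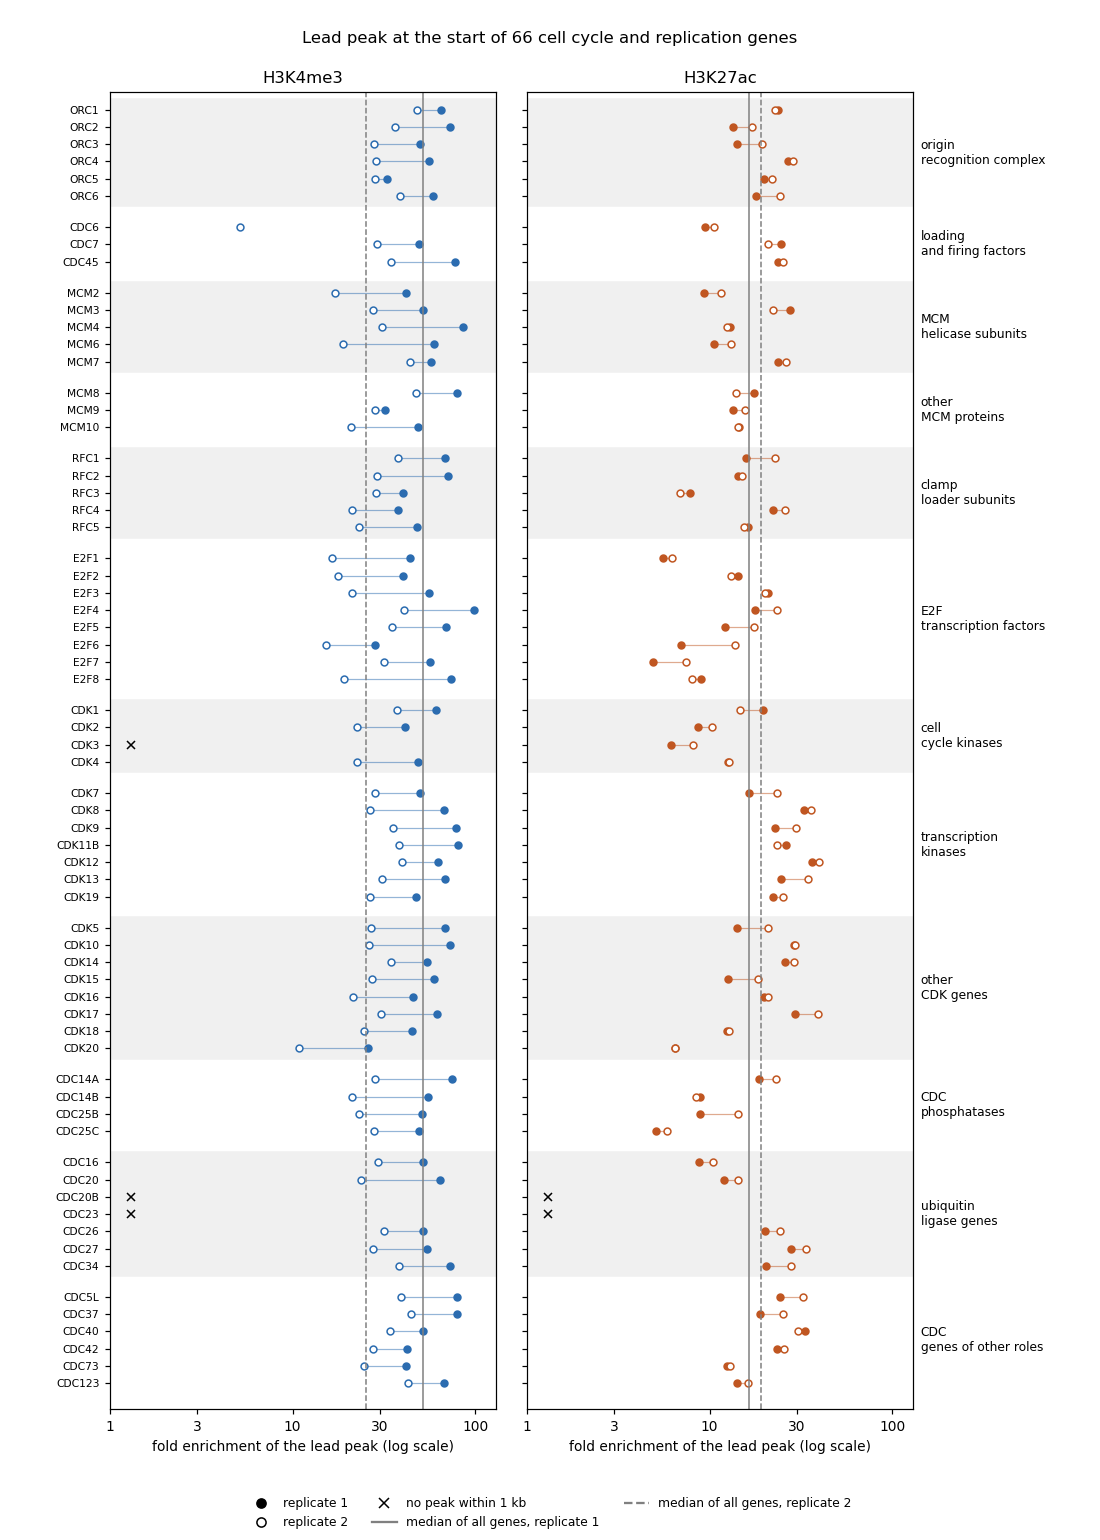
Fold enrichment (log scale) of the lead H3K4me3 and H3K27ac peak at each of the 66 members, ordered by role, with filled points for replicate 1, open points for replicate 2 and grey lines for the median of all protein-coding genes. Crosses mark CDC20B, CDC23 and CDK3 without H3K4me3 and CDC20B and CDC23 without H3K27ac. Each of the 7 kinases of transcription lies to the right of the H3K27ac median of its replicate, CDK7 in replicate 1 by the least (16.5 against 16.4).

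The sequences just before the starts of these genes were examined because E2F proteins bind DNA directly. The window ran from 250 bases before to 50 bases after the gene start, 300 bases in all, and was read from the RefSeq Sscrofa11.1 genome. An E2F word (TTTCCCGC, TTTCGCGC, TTTGCCGC or TTTGGCGC, on either strand) was found in the windows of 7 members, namely CDC25C, CDK1, E2F2, MCM3, MCM6, MCM8 and ORC1. This is 10.6% of the members, compared with 3.36% of the 19484 protein-coding windows and 4.48% of the windows of genes with H3K4me3 in both replicates. The share was 7.69% in proteasome subunit genes and 5.06% in cytosolic ribosomal protein genes. CHR words (TTTGAA or TTCGAA), which the late cell cycle factors are known to use, were in 12.1% of member windows and 15.5% of all windows. The CCAAT word was in 36.4% and 35.3%, and the GC box GGGCGG in 66.7% and 50.7%. A match says only that the letters are present in the window. Windows of 3 E2F-word members follow, chosen after their values were seen, because they are a helicase gene with more than 1 E2F word, another helicase gene whose CTCF peak reaches into the window, and the mitotic kinase gene, whose window holds all 3 kinds of word. Capitals mark E2F, CHR and CCAAT words on either strand, each sequence is 5′ to 3′ on the strand of the gene, and the gene start is the base after the first 250.
MCM6: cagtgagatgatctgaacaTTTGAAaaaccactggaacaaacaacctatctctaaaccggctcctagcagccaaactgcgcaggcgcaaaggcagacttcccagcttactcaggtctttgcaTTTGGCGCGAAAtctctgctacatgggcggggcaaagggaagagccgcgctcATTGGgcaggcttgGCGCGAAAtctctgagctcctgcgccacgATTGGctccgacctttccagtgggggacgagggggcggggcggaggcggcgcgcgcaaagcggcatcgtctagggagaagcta
MCM3: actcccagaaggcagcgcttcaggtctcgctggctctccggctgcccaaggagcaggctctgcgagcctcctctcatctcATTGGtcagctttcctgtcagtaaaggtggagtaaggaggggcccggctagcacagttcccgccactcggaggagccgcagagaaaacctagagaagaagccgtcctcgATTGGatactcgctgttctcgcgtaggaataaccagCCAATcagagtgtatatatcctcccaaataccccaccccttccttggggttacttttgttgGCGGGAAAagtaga
CDK1: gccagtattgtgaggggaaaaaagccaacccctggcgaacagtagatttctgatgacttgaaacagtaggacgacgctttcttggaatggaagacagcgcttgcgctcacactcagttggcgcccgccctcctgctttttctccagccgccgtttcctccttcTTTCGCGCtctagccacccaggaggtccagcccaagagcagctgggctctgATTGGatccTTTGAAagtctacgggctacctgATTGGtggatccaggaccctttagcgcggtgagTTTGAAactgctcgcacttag
The MCM6 window is chr15:15923388-15923687 on the plus strand. It holds 3 E2F words, whose first bases lie at −128, −124 and −62 from the start, and the words at −128 and −124 overlap each other. The MCM3 window is chr7:46104376-46104675 on the minus strand, with 1 E2F word at 36 bases after the start. The CDK1 window is chr14:64233695-64233994 on the plus strand, with an E2F word at −87, CCAAT words at −36 and −4, and CHR words at −27 and 29, and an exon of LOC100152879 on the other strand overlaps it. No E2F word was found in the windows of the RFC genes, the loading and firing factors or the kinases of transcription. The other CDK genes, the ubiquitin ligase genes and the CDC genes of other roles had none either. These groups hold 3 to 8 genes each. Only 3.36% of all windows held the word, so its absence from them is near the background.

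Member windows were rich in CpG. The median ratio of observed to expected CpG was 0.859 in members, 0.650 in all protein-coding windows and 0.781 in windows of genes with H3K4me3 in both replicates. A ratio of at least 0.6 was found in 55 members, 83.3% against 54.2% of all windows. Proteasome subunit genes (76.9%) and cytosolic ribosomal protein genes (83.5%) had similar shares, so this richness was not particular to the members. H3K4me3 was present in both replicates at 54 of these 55 members and at 8 of the 11 members below 0.6. Over all genes the shares were 94.8% and 38.2%. The 11 members of low ratio included 3 of the 4 that lacked H3K4me3 in 1 or both replicates (CDC23, CDC6 and CDK3), and the others were CDC25C, CDC40, CDK18, E2F1, E2F6, MCM2, ORC4 and RFC3.

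Origin recognition genes ranged around the medians of all genes. ORC1, the largest subunit, had H3K4me3 folds of 65.0 and 48.0 and H3K27ac folds of 23.6 and 22.9. ORC2 had H3K4me3 folds of 72.4 and 36.1, ORC3 50.1 and 27.9, and ORC4 55.5 and 28.5. ORC5 had the lowest H3K4me3 fold of the 6 in replicate 1, at 32.8, and 28.3 in replicate 2, and ORC6 had 58.8 and 38.9. None of the 6 was below the median of all genes in both replicates for the H3K4me3 fold, compared with 38.5% of all genes. For the H3K27ac fold 4 were above the median of all genes in both replicates, compared with 46.0% of all genes. ORC2 (13.5 and 17.2) was below that median in both, compared with 44.0% of all genes. ORC4 had a wide H3K4me3 peak, of 6186 and 6672 bp, and its start lies 80 bp from that of MBD5 on the other strand.

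At the loading and firing factors, CDC7 and CDC45 were marked and CDC6 was an exception described below. CDC7, a kinase that phosphorylates the MCM helicase, had H3K4me3 folds of 49.2 and 29.2 and H3K27ac folds of 24.5 and 21.0. CDC45, which travels with the helicase, had 77.0 and 34.5 for H3K4me3 and 23.6 and 25.2 for H3K27ac. Both H3K27ac folds of both genes lay above the medians of all genes, which were 16.4 and 19.2.

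The helicase subunit genes lay on both sides of the H3K27ac medians. MCM3 had H3K27ac folds of 27.5 and 22.2 and MCM7 had 23.8 and 26.3, above the medians of all genes. MCM2 had 9.37 and 11.6, MCM4 13.0 and 12.4, and MCM6 10.5 and 13.2, all below these medians. These 2 genes above and 3 below stand beside 46.0% and 44.0% of all genes, so the share was near the background. For H3K4me3 the folds were 41.8 and 17.0 at MCM2, 51.7 and 27.4 at MCM3, 86.1 and 31.0 at MCM4, 59.5 and 18.9 at MCM6, and 57.4 and 44.0 at MCM7. MCM4 was thus the highest of the 5 in replicate 1 and MCM7 in replicate 2. The start of MCM4 lies 411 bp from that of PRKDC, a DNA repair kinase gene on the other strand, and peaks there cannot be told apart between the 2 genes. MCM8, whose product acts with MCM9 in recombination, had H3K4me3 folds of 79.1 and 47.2, above the medians of all genes in both replicates. MCM9 had 31.9 and 28.3, and MCM10, a gene needed to start replication, had 48.5 and 20.8.

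Clamp loader genes had narrow peaks. RFC1, the large subunit, had an H3K4me3 width of 2641 and 2531 bp, RFC2 2754 and 4184 bp, RFC3 1695 and 1966 bp, RFC4 2037 and 2067 bp, and RFC5 1787 and 2187 bp. Of these 5 genes, 4 were narrower than the median of all genes (2740 and 2902 bp) in both replicates, compared with 45.3% of all genes. Their median H3K4me3 folds, 48.0 and 28.7, were beside 52.0 and 25.2 for all genes. RFC3 had low H3K27ac as well, with folds of 7.79 and 6.88, whereas RFC4 had 22.3 and 25.8.

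E2F genes ranged widely. E2F1, E2F2 and E2F3 are the activators of S phase genes, E2F4 and E2F5 work with the pocket proteins in resting cells, and E2F6, E2F7 and E2F8 repress transcription. E2F4, whose gene starts at 27834356 on chromosome 6 (plus strand), had H3K4me3 folds of 98.6 and 40.6, the highest of all members in replicate 1 only, since 5 members exceeded it in replicate 2, and its peak was narrow (2076 and 1897 bp). E2F6 had 28.3 and 15.2, E2F2 40.2 and 17.6, and E2F1 43.7 and 16.5, all below the medians of all genes. E2F3 had 55.9 and 21.1, E2F5 69.2 and 35.2, E2F7 56.3 and 31.7, and E2F8 74.1 and 19.1. For H3K27ac, 6 of the 8 E2F genes were below the median of all genes in both replicates, compared with 44.0% of all genes. The 2 lowest were E2F1, with 5.57 and 6.26, and E2F7, with 4.91 and 7.41. E2F3 and E2F4 were above that median in both replicates, with 20.8 and 20.0, and with 17.8 and 23.4.

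Among kinases, 4 genes were sorted to the cell cycle and 7 to transcription. CDK1, the kinase of mitosis, had H3K27ac folds of 19.7 and 14.7, CDK2, of S phase, 8.63 and 10.3, and CDK4, the partner of cyclin D, 12.7 and 12.7. CDK3 had 6.12 and 8.13, and none of these 4 genes was above the median of all genes in both replicates. All 7 kinases of transcription were above it in both replicates, compared with 46.0% of all genes. CDK12, which phosphorylates RNA polymerase II and whose gene starts at 22831397 on chromosome 12 (minus strand), had the highest H3K27ac fold of all members, 36.3 and 39.7. CDK8, a Mediator kinase, had 32.8 and 35.9, and its relative CDK19 had 22.2 and 25.4. CDK9, which releases paused polymerase, had 22.8 and 29.9, CDK7 of the factor TFIIH 16.5 and 23.5, CDK11B 26.3 and 23.5, and CDK13 24.5 and 34.5. CDK2, CDK3 and CDK4 were below the median of all genes in both replicates, compared with 44.0% of all genes. The fold of CDK1 lay among those of the 7 in replicate 1 only. The roles were assigned by name with earlier results known, and no test was made between them.

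Among the other CDK genes, CDK17 had folds of 29.5 and 39.2 for H3K27ac, and CDK20 was at the low end in the width and fold of both marks. CDK20 had H3K4me3 folds of 26.0 and 10.9, the lowest of the members with this mark in both replicates. Its lead H3K27ac peaks were 472 and 439 bp wide with folds of 6.47 and 6.45, and replicate 2 had 2 such peaks within 1 kb. The gene starts at 24102 on chromosome 14 (minus strand), close to the first base of that chromosome. The CDC phosphatases, of which CDC25B and CDC25C activate CDK1, had H3K27ac folds below the median of all genes in both replicates at 3 of 4 genes, compared with 44.0% of all genes. CDC25C had 5.09 and 5.86, the lowest fold of the members in replicate 2 and, after E2F7, in replicate 1, while its H3K4me3 folds were 49.4 and 28.0. CDC25B had 8.86 and 14.3 for H3K27ac, CDC14B 8.84 and 8.41, and CDC14A 18.7 and 23.2.

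Among genes of ubiquitin ligases, CDC20, the activator of the anaphase-promoting complex, had H3K4me3 folds of 64.5 and 23.7 and H3K27ac folds of 11.9 and 14.3. CDC27, a subunit of that complex, had H3K27ac folds of 28.0 and 33.7, CDC16 8.70 and 10.5, and CDC26 20.1 and 24.2. CDC34, a ubiquitin-conjugating enzyme, had 20.4 and 27.8. CDC16 and CDC20 were thus below the medians of all genes, and CDC26, CDC27 and CDC34 were above them, a split near the 44.0% and 46.0% of all genes. Among CDC genes of other roles, CDC37, a helper of the chaperone HSP90, had H3K4me3 folds of 79.7 and 44.2, above the medians of all genes in both replicates. CDC42, a small GTPase of cell shape, had 42.3 and 27.5. All 6 genes of this group had H3K4me3 peaks wider than the median of all genes in both replicates, compared with 46.2% of all genes.

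Peaks of members were wider than those of all genes in H3K4me3. The median width of the lead peak was 3159.5 and 3415 bp in members, a mean of 3287 ± 181 bp (SD, n = 2), and 2740 and 2902 bp in all genes, a mean of 2821 ± 115 bp. For H3K27ac it was 2704 and 2582 bp in members and 2441 and 2421 bp in all genes. These widths were higher in members than in all genes in both replicates. The medians for cytosolic ribosomal protein genes were larger still, at 4061 and 4239 bp for H3K4me3 and 4027.5 and 4020 bp for H3K27ac. The median H3K4me3 fold of members was 55.7 and 28.3, compared with 52.0 and 25.2 in all genes and 57.5 and 31.1 in proteasome subunit genes. Folds of this mark are on different scales in its replicates, so the gap between replicates is no measure of spread here. The median H3K27ac fold was 16.4 and 19.7 in members, compared with 16.4 and 19.2.

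The widest H3K4me3 peaks of the members were at CDK13 (7138 and 7383 bp) and CDK17 (6492 and 7679 bp) in both replicates. After them came CDK5 (6436 bp) in replicate 1 and E2F3 (7255 bp) in replicate 2, and ORC4 came after these in each. The gene of CDK13 starts at 54430060 on chromosome 18 (minus strand) and that of CDK17 at 87180132 on chromosome 5 (plus strand). Among the 62 members with both marks, the narrowest was RFC3 in replicate 1 and CDK20 (2092 and 1328 bp) in replicate 2. CDK17 had by far the widest H3K27ac peak, 12373 and 12412 bp, in both replicates. CDK1 (7002 and 6695 bp) came next in replicate 1 and E2F3 (4631 and 9547 bp) in replicate 2, so that the place of E2F3 depended on the replicate. The narrowest H3K27ac peaks were at CDK20, CDK3 (1057 and 985 bp) and E2F7 (876 and 1189 bp). Of the 62 members with both marks, 38 had the wider peak in H3K4me3 in both replicates and 9 in H3K27ac, the latter 14.5% against 18.5% of all genes. These 9 were CDC20, CDC27, CDC34, CDC37, CDK1, CDK17, E2F4, MCM7 and RFC2.

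**Figure D2:**
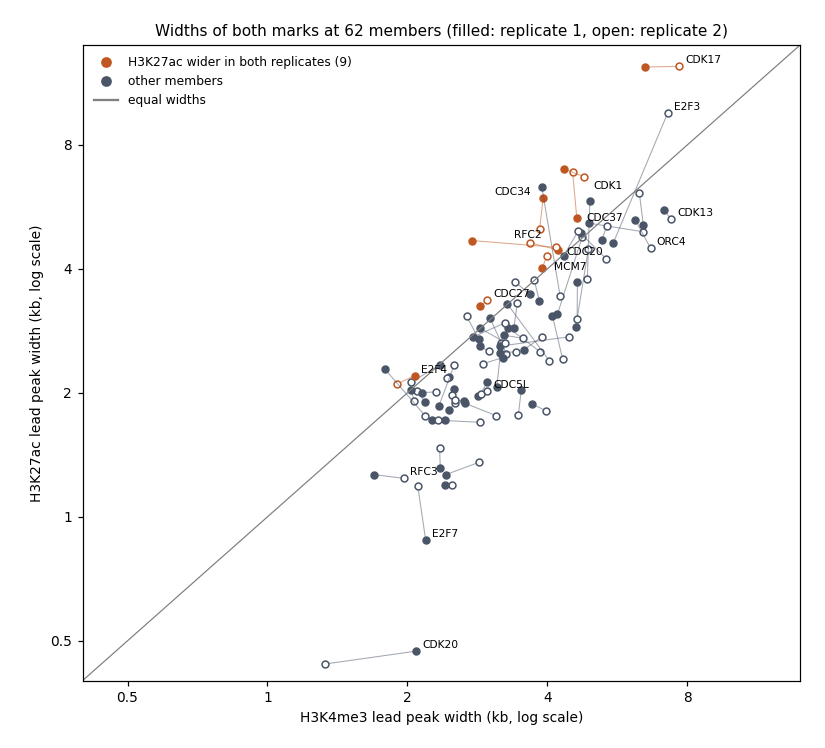
Width of the lead H3K27ac peak against that of the lead H3K4me3 peak (kb, log scales) at the 62 members with both marks in both replicates, with filled points for replicate 1, open points for replicate 2 and a line of equal widths. Orange points are the 9 members with the wider H3K27ac peak in both replicates, of which CDK17 lies farthest up, and CDK20 lies lowest.

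Width was more repeatable than fold in H3K4me3. Across 62 members, Spearman's rho between replicates was 0.951 for the H3K4me3 width and 0.629 for its fold. Across 64 members it was 0.936 for the H3K27ac width and 0.917 for its fold. Over all protein-coding genes the values were 0.941 and 0.746 for H3K4me3 and 0.944 and 0.939 for H3K27ac, so this was not particular to the members. The widths of both marks were correlated in each replicate (rho 0.841 across 62 members and 0.802 across 63), and their folds less so (0.305 and 0.486). Over all protein-coding genes the widths gave 0.779 and 0.761, and the folds 0.351 and 0.470. These are correlations across genes that share libraries and, in some cases, promoters, so they are descriptions only.

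Peaks reached farther into the gene than away from it, in members and in all genes alike. The lead H3K4me3 peak covered the start itself at 61 of 62 members in replicate 1 and 60 of 63 in replicate 2, and was longer on the downstream side at 51 and 48 of them. These are 82.3% and 76.2%, against 81.2% and 80.7% of all genes with a peak. H3K27ac covered the start at 59 of 64 members in both replicates and was longer downstream at 48, which is 75% against 74.4% and 75.4% of all genes with a peak. At 1 kb into the gene, 92.4% and 93.9% of members were covered by H3K4me3, compared with 60.1% and 61.0% of all genes. Here genes without a peak at the start are counted too. At 2 kb the shares were 43.9% and 50%, compared with 29.9% and 32.9%. H3K27ac covered 81.8% and 77.3% of members at 1 kb, compared with 45.2% and 46.0%. Only 69.6% of all genes in each replicate had an H3K4me3 peak at the start, and 61.3% and 62.7% an H3K27ac peak. These shares therefore include the difference in presence and do not show how far a peak reached where it was present.

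**Figure D3:**
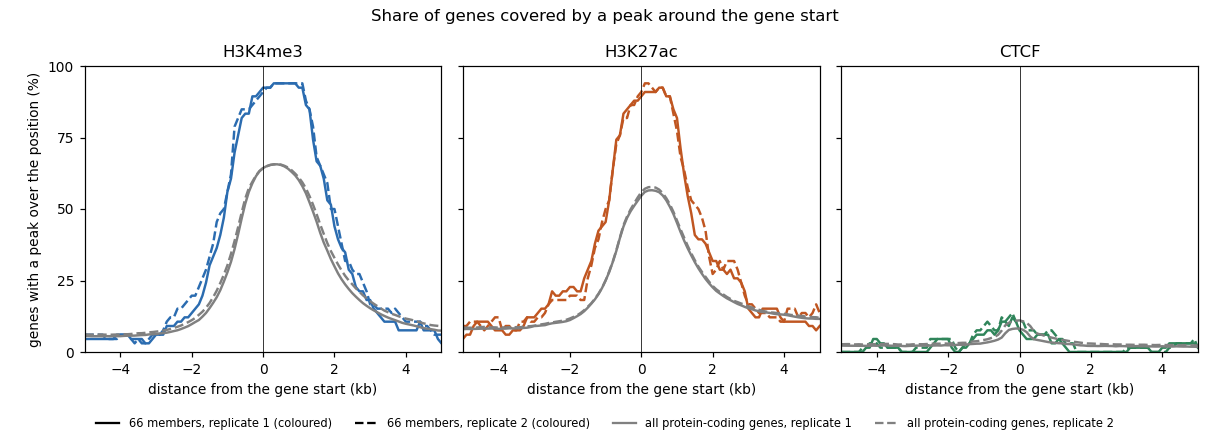
Share of genes (%) with a peak over each position from 5 kb before to 5 kb after the gene start, for the 66 members (coloured) and all protein-coding genes (grey), with solid lines for replicate 1 and dashed lines for replicate 2. In H3K4me3 the members stay above 90% from the start to 1 kb into the gene, and CTCF stays under 15% throughout.

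A neighbour that starts on the other strand within 1 kb upstream was found at 14 of 66 members, 21.2% against 12.0% of all genes. The share was higher in proteasome subunit genes (28.2%) and in cytosolic ribosomal protein genes (29.1%). Besides MCM4 and ORC4, the pairs included ORC1 with PRPF38A (50 bp between starts), ORC3 with RARS2 (38 bp), ORC6 with VPS35 (149 bp), MCM8 with TRMT6 (80 bp), CDC45 with UFD1 (291 bp), CDK2 with PMEL (114 bp), CDK5 with SLC4A2 (292 bp), and CDC25B with CENPB (428 bp). All 14 had both marks in both replicates, as did 2144 of the 2335 protein-coding genes with such a neighbour. The lead H3K4me3 peak reached a median of 1700 and 2023.5 bp upstream of the start at these members, compared with 999 and 1029 bp at the other members. Over all genes the values were 1563 and 1633 bp with such a neighbour and 732 and 787 bp without. Marks at such shared starts cannot be told apart between the 2 genes.

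A total of 4 members lacked H3K4me3 at the start in 1 or both replicates, and H3K4me3 was in neither replicate at 3 of them (29.7% of all genes). Of these 3, CDC20B and CDC23 also lacked H3K27ac in both replicates. Neither mark was in either replicate at 27.5% of all genes, and H3K27ac was in neither replicate at 36.7%. CDK3 had H3K27ac without H3K4me3, as did 1.45% of all genes.

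**Figure D4:**
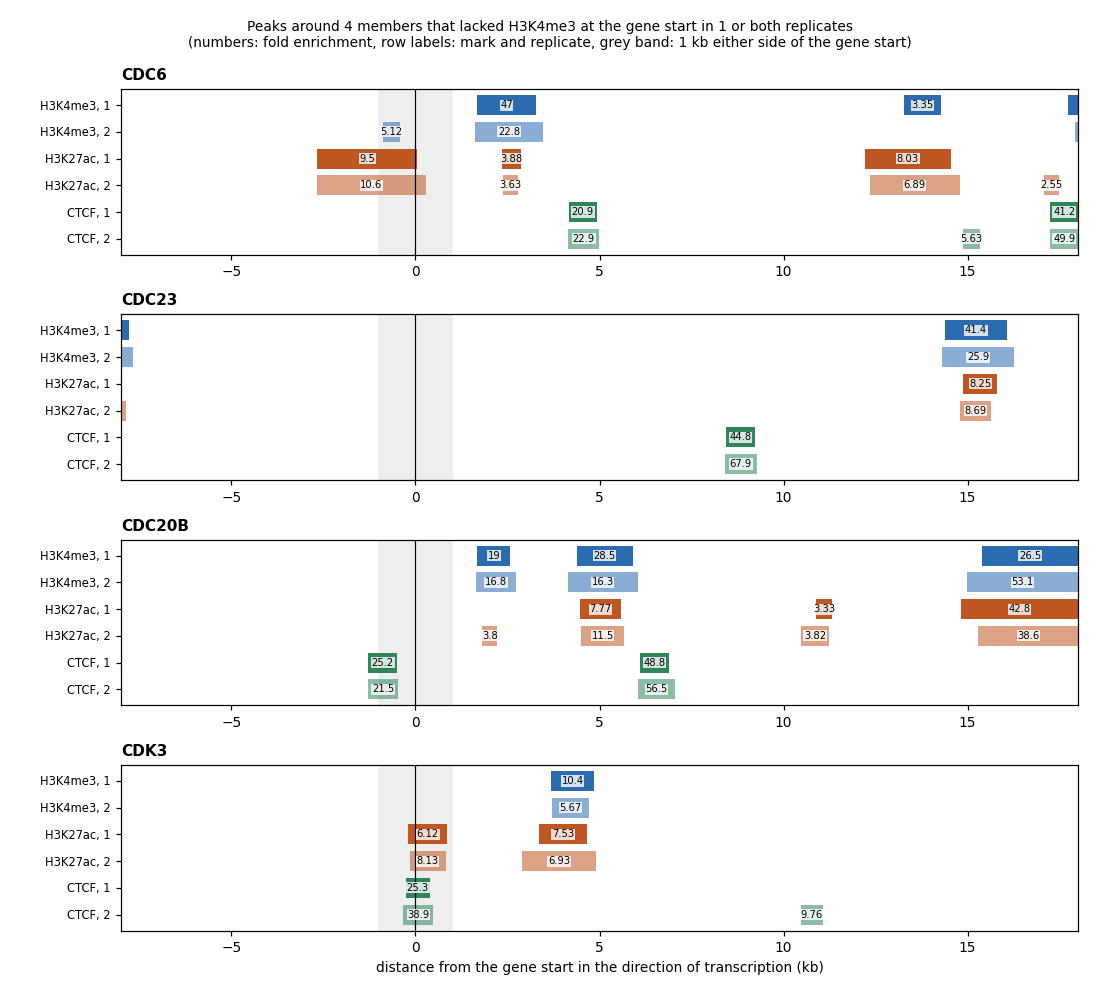
Peaks of the 6 libraries from 8 kb before to 18 kb after the gene start of CDC6, CDC23, CDC20B and CDK3, drawn to scale with the fold enrichment on each bar and a grey band for the 1 kb either side of the start. CDC6 and CDC23 have strong H3K4me3 peaks downstream of the band, with folds of 47.0 and 22.8 and of 41.4 and 25.9.

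CDC6 had its strong H3K4me3 peak away from the annotated start. The gene record begins at 22118441 on the minus strand of chromosome 12. At this start replicate 1 had no H3K4me3 peak, and replicate 2 had 1 of 484 bp with a fold of 5.12, 411 bp upstream. The strong H3K4me3 peaks began 1661 and 1629 bp downstream, with folds of 47.0 and 22.8, and their summits lay in intron 1, at 2487 and 2453 bp. H3K27ac had the reverse order. Its peaks over the annotated start had folds of 9.50 and 10.6. Their summits lay 1357 and 1275 bp upstream, and they ended 39 and 283 bp past the start. The H3K27ac peaks under the strong H3K4me3 peaks had folds of 3.88 and 3.63. The 300 bases at the annotated start had a CpG ratio of 0.353 and no E2F word. The H3K4me3 peak of replicate 1 held 2 E2F words in 1627 bases, both in the annotated exon 1. At least 2 words were found in 1.49% of windows of that length around the summits of 13563 lead H3K4me3 peaks. The words lie 2295 and 2319 bp downstream of the annotated start. The stretch of 30 bases around the second, chr12:22116104-22116133 on the minus strand, is shown with the word in capitals because it marks the place of the strong peak, and it was chosen after the values were seen.
CDC6: ggctgtgcagaTTTGGCGCgagcgcagctt

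CDC23, a subunit of the anaphase-promoting complex, was marked at other starts of its own. Its gene record begins at 140245728 on the minus strand of chromosome 2, where none of the 6 libraries had a peak and the window had a CpG ratio of 0.159. A pair of other RefSeq mRNAs begin 14953 and 14929 bp downstream. Both lie within 1 kb of an H3K4me3 peak with folds of 41.4 and 25.9 and widths of 1689 and 1977 bp, and of an H3K27ac peak with folds of 8.25 and 8.69. The window of the first of them, chr2:140230726-140231025 on the minus strand, held 1 E2F word, in capitals, and 4 CCAAT words. It is shown because the marks lay here and not at the record start, and it was chosen after the values were seen.
CDC23: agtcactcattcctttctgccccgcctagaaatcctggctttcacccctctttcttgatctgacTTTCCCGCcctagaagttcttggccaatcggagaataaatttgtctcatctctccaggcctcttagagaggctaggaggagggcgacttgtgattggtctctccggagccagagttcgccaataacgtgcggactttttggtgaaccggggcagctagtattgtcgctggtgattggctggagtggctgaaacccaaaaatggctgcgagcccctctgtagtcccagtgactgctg
A CTCF peak with folds of 44.8 and 67.9 lay between both places, 8436 and 8404 bp downstream of the record start.

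CDC20B, a relative of CDC20 in a locus known for genes of ciliated cells, had no histone mark at its start at 34354588 on the minus strand of chromosome 16. CTCF was the only peak there, with folds of 25.2 and 21.5 and summits 879 and 901 bp upstream. The nearest H3K4me3 peaks began 1682 and 1639 bp downstream, with folds of 19.0 and 16.8 and summits in exon 1. CDK3, a relative of CDK1 and CDK2, starts at 5430974 on the minus strand of chromosome 12. It had H3K27ac peaks of 1057 and 985 bp and CTCF peaks with folds of 25.3 and 38.9, whose summits lay 85 and 67 bp into the gene, in exon 1 of the transcript that begins there. Its nearest H3K4me3 peaks began 3693 and 3700 bp downstream, with folds of 10.4 and 5.67 and summits beyond the end of the transcripts.

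CTCF was at the start of 20 members in at least 1 replicate. The 15 with a peak in both replicates were CDC14B, CDC20B, CDC25B, CDC26, CDC37, CDC40, CDC5L, CDC7, CDC73, CDK17, CDK3, CDK9, MCM3, ORC2 and ORC5. The 5 with a peak in 1 replicate (5.02% of all genes) were CDK2 in replicate 1 and CDC14A, CDK13, E2F1 and MCM9 in replicate 2. The 3 highest folds in both replicates were at CDC37 (34.6 and 36.7), CDK3 and CDK9 (25.5 and 35.3). CDK17 had 23.2 and 24.8, and MCM3 had 16.5 and 31.3, so that its place depended on the replicate. The lowest among the 15 were at CDC5L (4.27 and 4.42) and ORC2 (3.95 and 6.23), and the 5 peaks seen in 1 replicate had folds from 3.84 to 7.54. None of the 5 RFC genes had a CTCF peak in either replicate, as was the case at 15021 of the 19487 protein-coding genes. Of the 6 CDC genes of other roles 4 had one in both replicates, beside the 17.9% of all genes given above. At CDC20B and E2F1 the CTCF summit lay in neither histone mark, at CDK3 it lay in H3K27ac only and at CDC40 in H3K4me3 only, and at the other members it lay in both.

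**Figure D5:**
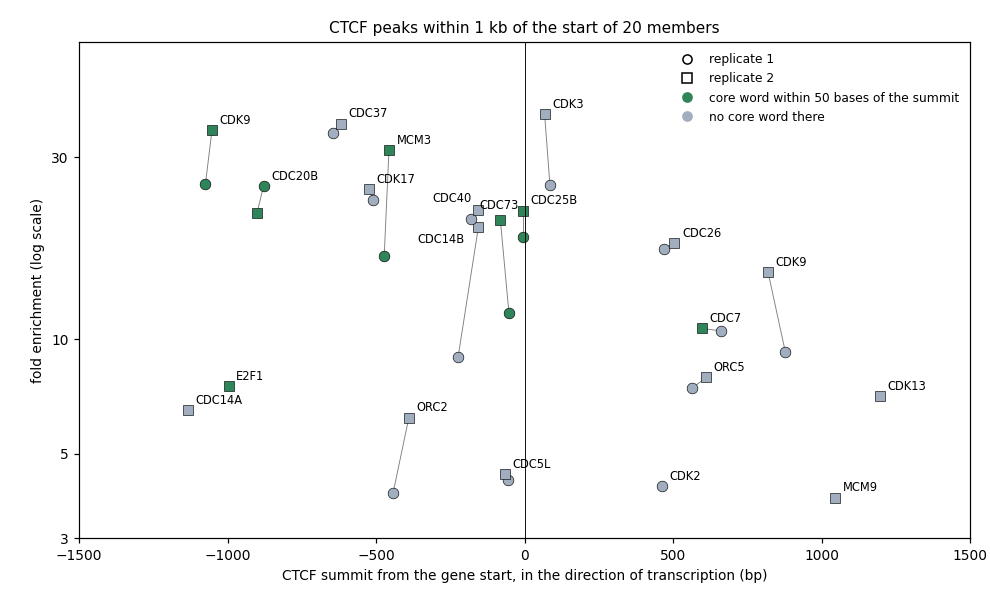
Fold enrichment (log scale) of CTCF peaks within 1 kb of the start of 20 members against the distance of the summit from the gene start (bp), with circles for replicate 1, squares for replicate 2 and green for a core word within 50 bases of the summit. Green points include CDC20B, MCM3 and the upstream peak of CDK9, and CDC37 and CDK3 are strong peaks without the word.

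The CTCF core word, which reads CC, any 3 bases, AG, any 2 bases and GGC, was searched on both strands within 50 bases of each summit. It was found in 5 of 17 peaks at members in replicate 1 and 7 of 20 in replicate 2. The shares of all CTCF peaks were 35.7% and 34.8%. The stretches of 30 bases around the core are shown for 4 members with a core word in both replicates, on the strand of the word, with the word in capitals. They are chr7:46104887-46104916 (minus strand) at MCM3, chr16:34355463-34355492 (plus strand) at CDC20B, chr1:268276033-268276062 (minus strand) at CDK9 and chr10:667675-667704 (plus strand) at CDC73.
MCM3: ccccgaatgCCACTAGAGGGCgtttgaaaa
CDC20B: ggtctctttCCTGAAGGTGGCactgtgaac
CDK9: aaccgatggCCGCCAGGGGGCgcggcgaca
CDC73: cgccgcccgCCGCCAGGGGGCgccccgccg
The MCM3 core lies at −482 from the gene start and the CDC73 core at −77. CDK9 and CDC73 share the same 12 letters. The CDC37 and CDK3 summits, with higher folds than CDC73, had no core word within 50 bases.

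Other genes of the pathway, from lists chosen by function, were marked as often as the members. Of 83 listed symbols 79 were found, and 76 of these had both marks in both replicates. All 11 cyclins, all 10 pocket and DP proteins and all 20 mitotic regulators had both marks, as did 8 of 9 licensing partners, 21 of 22 fork enzymes and 6 of 7 CDK inhibitors. The exceptions were CDKN2B, an inhibitor of CDK4, GINS2, a partner of the MCM helicase, and PRIM2, a primase subunit. CDKN2B had H3K27ac folds of 20.0 and 25.9 and no H3K4me3 peak. GINS2 had H3K4me3 folds of 57.3 and 24.1 and H3K27ac in replicate 2 only, with a fold of 2.79. PRIM2 had neither mark. CTCF was present in both replicates at 11 of the 79 genes.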

How the data were processed

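ChIP-seq of H3K4me3, H3K27ac and CTCF in PEFs was analysed from the narrow peak lists, 1 for each of 6 libraries, with groups and replicate numbers taken from the labels. The authors aligned read pairs by bowtie2, discarded ambiguous alignments and PCR duplicates, and called narrow peaks of each library by MACS2. Tool versions and the control used for each library are not given in the sources used here. The deposited fold enrichment is a ratio over the background of the peak caller, and the deposited p-values and q-values are on a −log10 scale. The methods state a q-value of 0.01, and between 0.0560% and 3.06% of the peaks in a list had a higher one. Lists were used as deposited. The labels name Sscrofa11.1, and all peak ends lay within its chromosome lengths. Peaks on scaffolds and chromosome Y (435 to 633 a library) were left out, as were the inputs.

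Peaks were joined to RefSeq gene starts in Python 3.11.15 with numpy 2.4.6, pandas 2.3.3 and scipy 1.17.1, and sequences were read with pysam 0.24.0. The joining, the reading of peak widths and the search for 1 of the E2F words (TTTGGCGC) were tested on simulated data. All libraries come from untreated cells and there are 2 replicates a mark, so no test was made, and values are given for each replicate, beside all protein-coding genes. The precision of a single fold cannot be stated without read counts. Members and lists were chosen with earlier results of these data known. Genes named in the text were those lacking a histone mark, those with CTCF, the 3 highest and 3 lowest in width and fold by the mean over replicates, and a fixed set of MCM, ORC, RFC, E2F, CDC and CDK genes. The remaining CDK and CDC genes, and the pairs of starts, were named after their values were seen. Alternatives changed the distance, the start, the q-value, the overlap between replicates, the lead peak and the replicates used.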

Additional observations from a re-analysis of the deposited data

How the results depend on the processing

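Of 84 values computed under alternatives for 8 results, 81 stayed within the limit set for them. The limit was 1.5 times for a count and 1 SD over replicates for a median. Leaving out 1 replicate could not move a median past this limit, and the counts of the histone marks could not rise by 1.5 times. The 81 is therefore no measure of how stable the results are. Within 5 kb, 23 members had CTCF in both replicates, against 15 within 1 kb. When the summit itself had to lie within 1 kb, the median H3K4me3 width was 3048 bp instead of 3287 bp, the median H3K27ac width 2545 bp instead of 2643 bp, and H3K4me3 was counted at 47 members and H3K27ac at 56. With any mRNA start of a gene, H3K4me3 was counted at 63 members and H3K27ac at 65, the gain being CDC23 in both. With 1 replicate left out, H3K4me3 was counted at 62 or 63 members, H3K27ac at 64 and CTCF at 16 or 19, and the median H3K4me3 fold was 55.7 or 28.3. The fold in H3K4me3 therefore depends on the replicate. No paired analysis was possible because the results come from no test, and replicate numbers of different marks link no samples. Depth behind a peak is unknown, so a missing peak is one not called at this depth.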

Other observations

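H3K27ac peaks inside the gene bodies of members, more than 1 kb from the start, were most numerous at CDK14, a kinase gene of 632 kb, with 77 and 73 peaks in replicates 1 and 2. CDK17 had 17 and 24 over 102 kb, E2F3 10 and 13, CDC14A 8 and 9, MCM9 8 and 8, and CDC42 and CDK15 8 and 7 each. MCM10 had 3 and 10, so that its count depended on the replicate. These counts are not corrected for gene length. H3K4me3 peaks in the body of CDK14 numbered 11 and 24, and CTCF peaks 10 and 12. These genes were named after their values were seen.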
